A study of Mus musculus with 2 samples.

Results

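The genes for the pore-forming subunits of AMPA and kainate glutamate receptors, Gria1 to Gria4 and Grik1 to Grik5, are 9 of the 32285 genes counted in single GL261 cells grown adherently or as neurospheres. They are taken by gene name, as the AMPA subunits GluA1 to GluA4 (4 genes) and the kainate subunits GluK1 to GluK5 (5 genes) of the mouse.

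AMPA and kainate receptors are tetrameric cation channels that open when glutamate binds. AMPA receptors carry most fast excitatory transmission in the brain, while kainate receptors act on both sides of the synapse and are modulated by the auxiliary proteins Neto1 and Neto2. Cells of the oligodendrocyte lineage can also carry these channels, and synapses from neurons onto glioma cells that work through AMPA receptors have been described.

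GL261 is a mouse glioma line of C57BL/6 origin that is widely used as a model of glioblastoma. The study compared cells of this line in 2 growth forms, with 1 single-cell RNA library each. Adherent cells grew in DMEM with 10% FBS and antibiotics. Neurospheres, which are free-floating aggregates, were grown for 12 days after Epidermal Growth Factor and Fibroblast Growth Factor, each at 20 ng/mL, and B-27 had been added to the same medium. No other treatment and no genetic change is named for either form. Both samples were trypsinized, neurospheres were also broken up by pipetting, and both were frozen in medium with DMSO before shipping. The libraries were made with version 3 of the 3′ chemistry of 10x Genomics, which counts unique molecular identifiers (UMIs), 1 for each captured RNA molecule.

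After mitochondrial and ribosomal genes and poor barcodes had been left out, the adherent library held 46290996 UMIs in 5051 cells and the neurosphere library 64943938 UMIs in 4276 cells. The median depth was 8260 UMIs per adherent cell and 13198.5 UMIs per neurosphere cell. The libraries shared 12 cell barcodes, of which 10 adherent and 11 neurosphere cells were kept, and without them the log2 fold changes were 5.11 for Grik2 and 0.90 for Grik3, within the intervals given below. Levels below are UMIs summed over the cells of a library per 1e6 UMIs of that library (CPM), and each log2 fold change sets neurosphere over adherent CPM, so that positive values mean more in neurospheres. With 1 library per condition there is no replicate check and no test was possible, and the 95% intervals (exact Poisson for CPM, exact conditional for fold changes, exact binomial for shares) cover counting error only. A gene with at least 50 UMIs over both libraries is called measured, and a measured gene whose CPM differed by over 2-fold is called higher or lower.

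The label gives the cell type as astrocytoma, and the astrocyte markers bore this out only in part. Of 9 astrocyte markers, Aqp4 and Sox9 had 0 UMIs in both libraries, and Gfap had 30 adherent and 27 neurosphere UMIs, while S100b stood at 161 and 255 CPM and Slc1a3 at 370 and 80.5 CPM. The cells are therefore called here by their growth form.

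The AMPA subunit genes were close to absent in both growth forms. GluA1 (Gria1) had 2 adherent UMIs and 1 neurosphere UMI, and GluA2 (Gria2), the subunit that makes the edited channel tight to calcium, had 1 UMI in each library. GluA3 (Gria3) had 1 adherent UMI and 8 neurosphere UMIs, and GluA4 (Gria4) had 10 UMIs in each. Summed, the 4 genes reached 0.302 CPM (0.165 to 0.507) in adherent cells and 0.308 CPM (0.188 to 0.476) in neurosphere cells, so the family level was not distinguishable between the libraries at this depth. None of the 4 genes was measured, and no direction is given for them. For comparison, 3 counts, the limit that a count of 0 allows, correspond to 0.0648 CPM in the adherent and 0.0462 CPM in the neurosphere library, and Gria4 lay above that limit in both, Gria3 in the neurosphere library only.

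The cells with an AMPA UMI were correspondingly few. An AMPA UMI was found in 14 adherent cells (0.277%, interval 0.152% to 0.465%) and 19 neurosphere cells (0.444%, 0.268% to 0.693%). No cell had UMIs of 2 AMPA genes. After each cell had been thinned to 5000 UMIs, to set both libraries on the same depth, 8 of 4464 adherent cells (0.179%) and 3 of 4196 neurosphere cells (0.0715%) had such a UMI. Thinned to 3000 UMIs the shares were 0.0407% and 0.0468%, and to 8000 UMIs 0.149% and 0.256%, so the neurosphere share was the higher in all but the 5000 UMI setting. On so few cells no difference is read from these shares. The share of GluA2 among AMPA UMIs, which matters for the calcium permeability of the channel, rested on 1 of 14 adherent UMIs (7.14%, 0.181% to 33.9%) and 1 of 20 neurosphere UMIs (5.00%, 0.127% to 24.9%). The UMIs were too few to set the composition of AMPA transcripts in either form.

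The kainate subunit genes, in contrast, were all measured, and their sum stood at 35.0 CPM (33.3 to 36.7) in adherent cells and 460 CPM (455 to 465) in neurosphere cells. The median share of mitochondrial UMIs in the kept cells, a sign of RNA quality, was 2.02% and 3.97%, and its part in the difference was not tested beyond leaving out cells at 10% or more, which gave 5.14 as the log2 fold change of Grik2. Of the 5 genes, Grik1 and Grik2 were higher in neurospheres, Grik4 was lower, and Grik3 and Grik5 lay within 2-fold. Over all 14654 measured genes, 21.7% were higher and 11.7% were lower. Of measured genes longer than 300 kb, as Grik1, Grik2 and Grik4 are, 40.6% were higher and 11.4% lower. Of those from 100 to 300 kb, as Grik3 is, 30.5% were higher. The count of 2 of 5 higher thus lies near the share of the longest genes, and on 5 genes nothing is read from either count. The median log2 fold change of the 5 genes was 0.89, beside 0.32 over all measured genes and 0.74 over those longer than 300 kb. These 5 are the members with enough UMIs, not all 9.

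GluK2 (Grik2), a subunit that forms channels on its own and with GluK4 or GluK5, moved furthest. It had 529 UMIs in adherent cells, or 11.4 CPM (10.5 to 12.4), and 25630 UMIs in neurosphere cells, or 395 CPM (390 to 400). The fold change was 34.5 (31.7 to 37.7), a log2 fold change of 5.11 (4.99 to 5.24), and at least 161 of the 14654 measured genes had a larger one, where a gene at 0 UMIs in a library is ranked as if it had 3 counts there. Ranked by CPM among measured genes, Grik2 thus went from percentile 47.4 in adherent cells to percentile 97.1 in neurosphere cells.

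GluK1 (Grik1), which likewise forms functional channels alone, rose beside it. Its 81 adherent UMIs made 1.75 CPM (1.39 to 2.17), and its 2723 neurosphere UMIs made 41.9 CPM (40.4 to 43.5). The log2 fold change was 4.58 (4.26 to 4.92), with at least 222 measured genes above it. In the adherent library no cell held more than 1 UMI of Grik1, while in the neurosphere library up to 14 were found in a cell.

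GluK3 (Grik3), the remaining subunit able to form channels alone and known for its low affinity for glutamate, was at 7.67 CPM (6.89 to 8.51; 355 UMIs) in adherent cells and 14.2 CPM (13.3 to 15.2; 924 UMIs) in neurosphere cells. Its log2 fold change of 0.89 (0.71 to 1.07) stayed short of 2-fold. It reached 1.11 when totals included mitochondrial and ribosomal genes, which put it just past 2-fold, as thinning each cell to 5000 UMIs did, and was 0.67 with TMM scaling, a trimmed mean of ratios over genes. Grik3 is thus the gene whose call hung on the scaling.

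GluK4 (Grik4) and GluK5 (Grik5) bind glutamate with high affinity but need GluK1, GluK2 or GluK3 to form a channel. Grik4 fell from 4.58 CPM (3.98 to 5.24; 212 UMIs) in adherent cells to 1.60 CPM (1.31 to 1.94; 104 UMIs) in neurosphere cells, or -1.52 in log2 fold change (-1.87 to -1.17). Grik5 was at 9.57 CPM (8.70 to 10.5; 443 UMIs) and 7.62 CPM (6.97 to 8.32; 495 UMIs), a log2 fold change of -0.33 (-0.52 to -0.14). Under all settings run Grik4 stayed over 2-fold lower and Grik5 within 2-fold, while the partners Grik1 and Grik2 stayed over 2-fold higher.

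**Figure D1:**
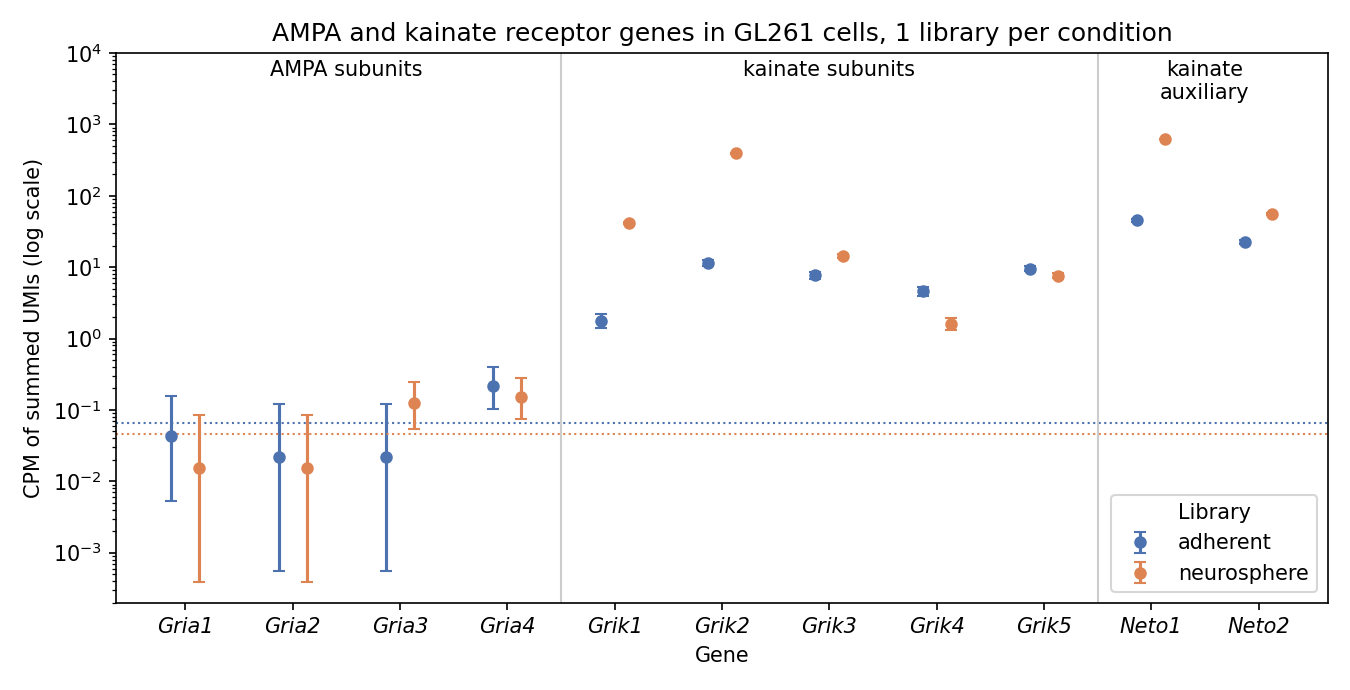
CPM of summed UMIs (log axis) of the 4 AMPA genes, the 5 kainate genes and the auxiliary genes Neto1 and Neto2 in the adherent (blue) and neurosphere (orange) library, with exact 95% Poisson intervals that cover counting error only. Dotted lines mark the CPM of 3 counts in each library, above which lie Gria4 in both libraries and Gria3 in the neurosphere library, while the other AMPA points lie below and Grik2 stands at 11.4 and 395 CPM.

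The scaling sets the zero of these comparisons. The median over all measured genes moved from 0.32 to 0.54, a shift of 0.22, when the mitochondrial and ribosomal genes stayed in the total, and to 0.11, a shift of -0.22, with TMM factors. The shares of genes called higher and lower, 21.7% and 11.7%, became 29.5% and 9.38% with those genes in the total and 16.1% and 14.5% with TMM. Grik1, Grik2, Grik3, Grik4 and Grik5 kept their signs under each of these scalings, and Grik5 ranged from -0.55 with TMM to -0.11 with those genes in the total.

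The make-up of the kainate UMIs differed between the forms. In adherent cells Grik2 took 32.7% (30.4% to 35.0%) of the 1620 kainate UMIs, Grik5 27.3%, Grik3 21.9%, Grik4 13.1% and Grik1 5.00%. In neurosphere cells Grik2 took 85.8% (85.4% to 86.2%) of 29876 UMIs, Grik1 9.11%, Grik3 3.09%, Grik5 1.66% and Grik4 0.348%. By UMIs Grik2 thus led in both forms. Longer genes can collect more UMIs where introns are counted, so levels of different genes are also given per length. On the scale of CPM per 100 kb of gene, Grik5 led in adherent cells with 15.3, ahead of Grik3 with 3.43, Grik2 with 1.65, Grik4 with 1.07 and Grik1 with 0.444. On the same scale Grik2 led in neurosphere cells with 56.9, ahead of Grik5 with 12.2, Grik1 with 10.6, Grik3 with 6.37 and Grik4 with 0.376. On the scale of CPM per kb of exon, Grik5 again led in adherent cells with 1.85 and Grik2 in neurosphere cells with 29.8. The lead of Grik5 in adherent cells thus appeared only after division by length. A UMI stands for 1 captured RNA molecule, whatever the exon length, and whether introns were counted is not given. No change of the leading kainate subunit between the forms is therefore read from these scales.

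The genes lie on different chromosomes, apart from Gria4 and Grik4, which share chromosome 9. In the GENCODE annotation of GRCm38, the build the submitters name, Grik2 (ENSMUSG00000056073) covers chr10:49094833-49788766 on the minus strand, Grik1 (ENSMUSG00000022935) chr16:87895900-88290265 on the minus strand and Grik3 (ENSMUSG00000001985) chr4:125490700-125714173 on the plus strand. Grik4 (ENSMUSG00000032017) covers chr9:42518135-42944493 and Grik5 (ENSMUSG00000003378) chr7:25009849-25072346, both on the minus strand. The AMPA genes are Gria1 (ENSMUSG00000020524) at chr11:57011387-57330244 and Gria3 (ENSMUSG00000001986) at chrX:41400854-41678601 on the plus strand, and Gria2 (ENSMUSG00000033981) at chr3:80681450-80802835 and Gria4 (ENSMUSG00000025892) at chr9:4417896-4796234 on the minus strand. What the 9 share is length. They run from 62.5 kb (Grik5) to 694 kb (Grik2), against a median of 12.3 kb over the annotated genes, and exons make up 1.40% (Grik4) to 12.8% (Gria2) of the gene body. Grik2 alone overlaps other annotated genes, Gm26543 and Gm47018, which lie in its introns on the same strand, so that UMIs of these and of unspliced Grik2 RNA could not be told apart by position. Whether reads in introns were counted is not given in the sources used here.

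Gene length moved with the fold changes over all genes, so the kainate genes were set beside genes of like length. Among 411 measured genes longer than 300 kb the median log2 fold change was 0.74 and 40.6% were higher. Grik2, at 5.11, was exceeded by at least 16 of these genes and lay above their 95th percentile of 4.74, while Grik1, at 4.58, lay below it. Grik4, in the same length class, went the other way at -1.52. With the trend on gene length removed over all measured genes, the log2 fold changes were 4.75 for Grik2, 4.28 for Grik1, 0.64 for Grik3, -1.83 for Grik4 and -0.42 for Grik5. The calls of all 5 genes were unchanged. This step takes out the average trend only, and not the wider spread of long genes. Their 95th percentile of 4.74 stood beside 2.47 for genes under 10 kb. The part of gene length in the differences was otherwise not tested.

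**Figure D2:**
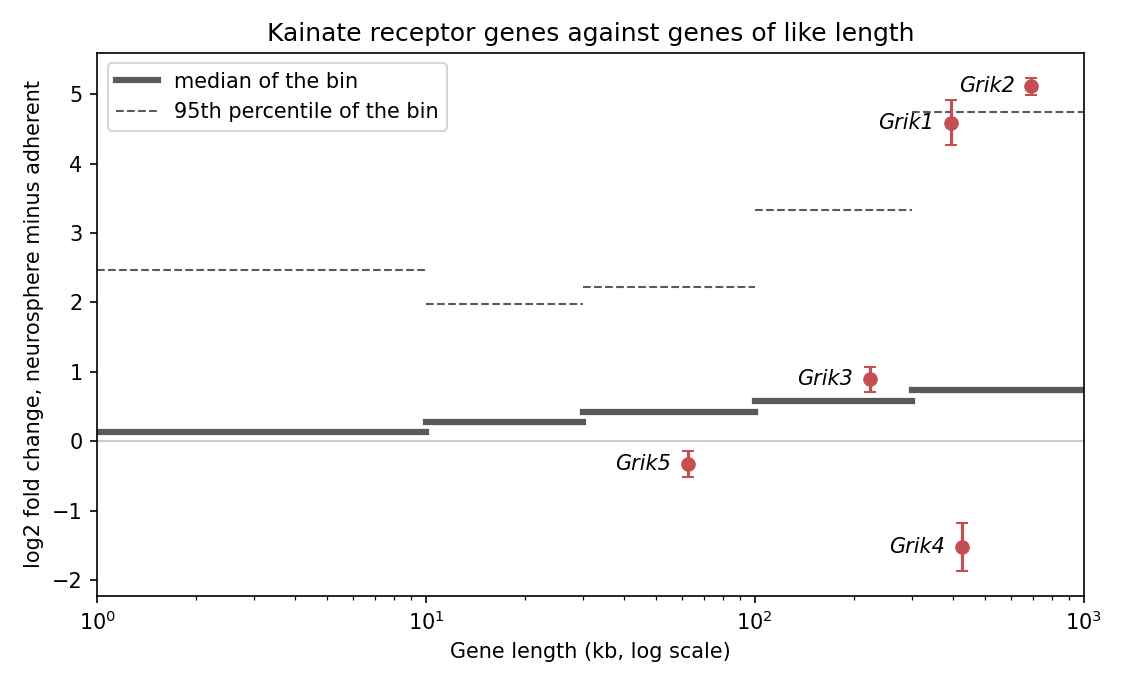
Log2 fold change (neurosphere minus adherent) of the 5 measured kainate genes (red, with exact 95% conditional intervals for counting error) against gene length in kb on a log axis. Grey lines give the median (solid) and the 95th percentile (dashed) of all measured genes in 5 length bins, of which the outermost are open-ended, and Grik2 at 5.11 lies above the 95th percentile of its bin.

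Most neurosphere cells held kainate transcripts, and most adherent cells showed none at this depth. A UMI of any kainate gene was found in 1300 adherent cells (25.7%, interval 24.5% to 27.0%) and 3787 neurosphere cells (88.6%, 87.6% to 89.5%). Thinned to 5000 UMIs per cell (587 adherent and 80 neurosphere cells were shallower and dropped out), the shares were 15.1% (14.1% to 16.2%) of 4464 adherent and 71.8% (70.4% to 73.2%) of 4196 neurosphere cells. The gap between the libraries thus remained at equal depth. UMIs of at least 2 kainate genes were found in 1.21% of the thinned adherent cells and 19.5% of the thinned neurosphere cells. Free RNA can place UMIs in droplets whose cell does not express a gene, and as both libraries come from a single line, no cell type that should lack these genes was there to show that background.

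The shares of cells went with the levels for Grik1, Grik2, Grik3 and Grik4. Grik2 was found in 9.25% of adherent cells (8.46% to 10.1%) and 81.8% of neurosphere cells (80.6% to 83.0%), or in 5.24% and 64.0% of thinned cells. Grik1 was found in 1.60% (1.28% to 1.99%) and 35.3% (33.8% to 36.7%), or in 0.851% and 18.5% of thinned cells. Grik3 was in 6.36% and 14.8% of cells and in 3.49% and 6.51% of thinned cells. For the co-subunits, the thinned shares were 2.22% and 0.906% for Grik4 and 4.55% (3.96% to 5.20%) and 3.79% (3.23% to 4.41%) for Grik5. Unthinned, Grik5 stood at 8.37% and 10.9%, against the order of its CPM, so no order is read from its share of cells.

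Within the neurosphere library, Grik2 spread widely from cell to cell. The median neurosphere cell had 3 UMIs of Grik2, with quartiles of 1 and 8 UMIs and a maximum of 206 UMIs, and the 10% of cells with the most Grik2 UMIs held 40.2% of them. The 1508 neurosphere cells with Grik1 held 1.81 UMIs each on average, and the 634 cells with Grik3 held 1.46 UMIs each. Grik4 and Grik5 UMIs came almost always alone, with at least 2 UMIs in 5 and 29 neurosphere cells. Grik1, Grik2 and Grik3 were among the 2000 most variable genes of the neurosphere library, and 0 of the 9 genes were among those of the adherent library.

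The level of Grik2 also went with the depth of a cell. In neurosphere cells ranked by total UMIs, Grik2 stood at 802 CPM in the shallowest quartile (median 7123 UMIs per cell), at 571 and 347 CPM in the next 2 quartiles, and at 243 CPM in the deepest (median 24909 UMIs). The share of cells with Grik2 hardly moved over the same quartiles, from 84.0% in the shallowest to 82.1% in the deepest. In adherent cells the values were 14.9 CPM in the shallowest and 9.42 CPM in the deepest quartile, so each neurosphere quartile lay above each adherent quartile. Grik1 and Grik3 went from 62.6 to 31.7 CPM and from 22.2 to 11.6 CPM from the shallowest to the deepest neurosphere quartile. The part of depth in these levels was not tested.

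Clusters were made in each library without the 9 genes among the variable genes, and are given by number with their leading genes. In the 11 neurosphere clusters, Grik2 ran from 97.1 CPM (90.5 to 104) in cluster 6, led by Wnt7b, Prss56 and Igf1, to 1160 CPM (1131 to 1190) in cluster 1, led by Comp, Pdzd2 and Ism1. Cluster 6 was the deepest, with a median of 22970.5 UMIs per cell, and cluster 1 the shallowest, with 7594. Next to cluster 1 came cluster 5, led by Dusp15, Mbp and Gm4876, with 983 CPM of Grik2 (949 to 1018), and the median cluster had 352 CPM. All 11 clusters thus carried Grik2, over a range of 11.9-fold. The median share of mitochondrial UMIs was 3.05% in cluster 6, 4.85% in cluster 1 and 4.75% in cluster 5. It was highest in cluster 7, at 4.98% with 256 CPM of Grik2, and its part in these levels was not tested.

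Grik1 and Grik3 were both highest in neurosphere cluster 5, at 104 CPM (93.1 to 116) and 47.9 CPM (40.7 to 56.1), and both lowest in cluster 6, at 9.86 CPM (7.83 to 12.3) and 3.41 CPM (2.26 to 4.93). The intervals of cluster 8 overlapped those of cluster 6, at 10.6 CPM (7.46 to 14.6) of Grik1 and 4.01 CPM (2.19 to 6.73) of Grik3. With clustering at a resolution of 0.5, the lowest clusters of these genes differed. Median depth was 8470.5 UMIs per cell in cluster 5 and 22970.5 in cluster 6, and the part of depth in these levels was not tested. Cluster 5 also had the highest levels of the myelin genes Cnp (1234 CPM) and Mog (38.3 CPM) and of Gpr17 (72.8 CPM), a receptor of differentiating oligodendrocyte precursors. Cluster 0, led by Aatk, Depdc1b and Aspm, came next for Grik3. It had 29.4 CPM of Grik3 and 453 CPM of Grik2, while cluster 1 had 9.93 CPM of Grik3 and 1160 CPM of Grik2. The highest Grik2 level thus lay in another cluster than the highest levels of Grik1 and Grik3. Grik5 kept within 5.18 and 10.9 CPM over all neurosphere clusters, a range of 2.10-fold.

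In the 10 adherent clusters, Grik2 ran from 4.48 CPM in cluster 7, led by 4933431K23Rik, Zg16 and Ica1l, to 143 CPM (86.3 to 224) in cluster 9, led by Gm32511, Gm31452 and Lars2. Cluster 9 held 48 cells with a median of 2623.5 UMIs and 12.3% mitochondrial UMIs, and its Grik2 level rested on 19 UMIs. In the other 9 adherent clusters Grik2 did not exceed 20.7 CPM (15.9 to 26.4), the value of cluster 6, so that, cluster 9 apart, each adherent cluster lay below each neurosphere cluster. Grik3 was highest in adherent cluster 8, led by Egflam, Tssc4 and Lingo2, at 23.3 CPM (16.9 to 31.4), and for this gene the clusters of the libraries overlapped. With resolutions of 0.8 and 0.5 and another seed, the highest neurosphere level of Grik2 lay between 1059 and 1145 CPM and the lowest between 94.9 and 183 CPM.

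**Figure D3:**
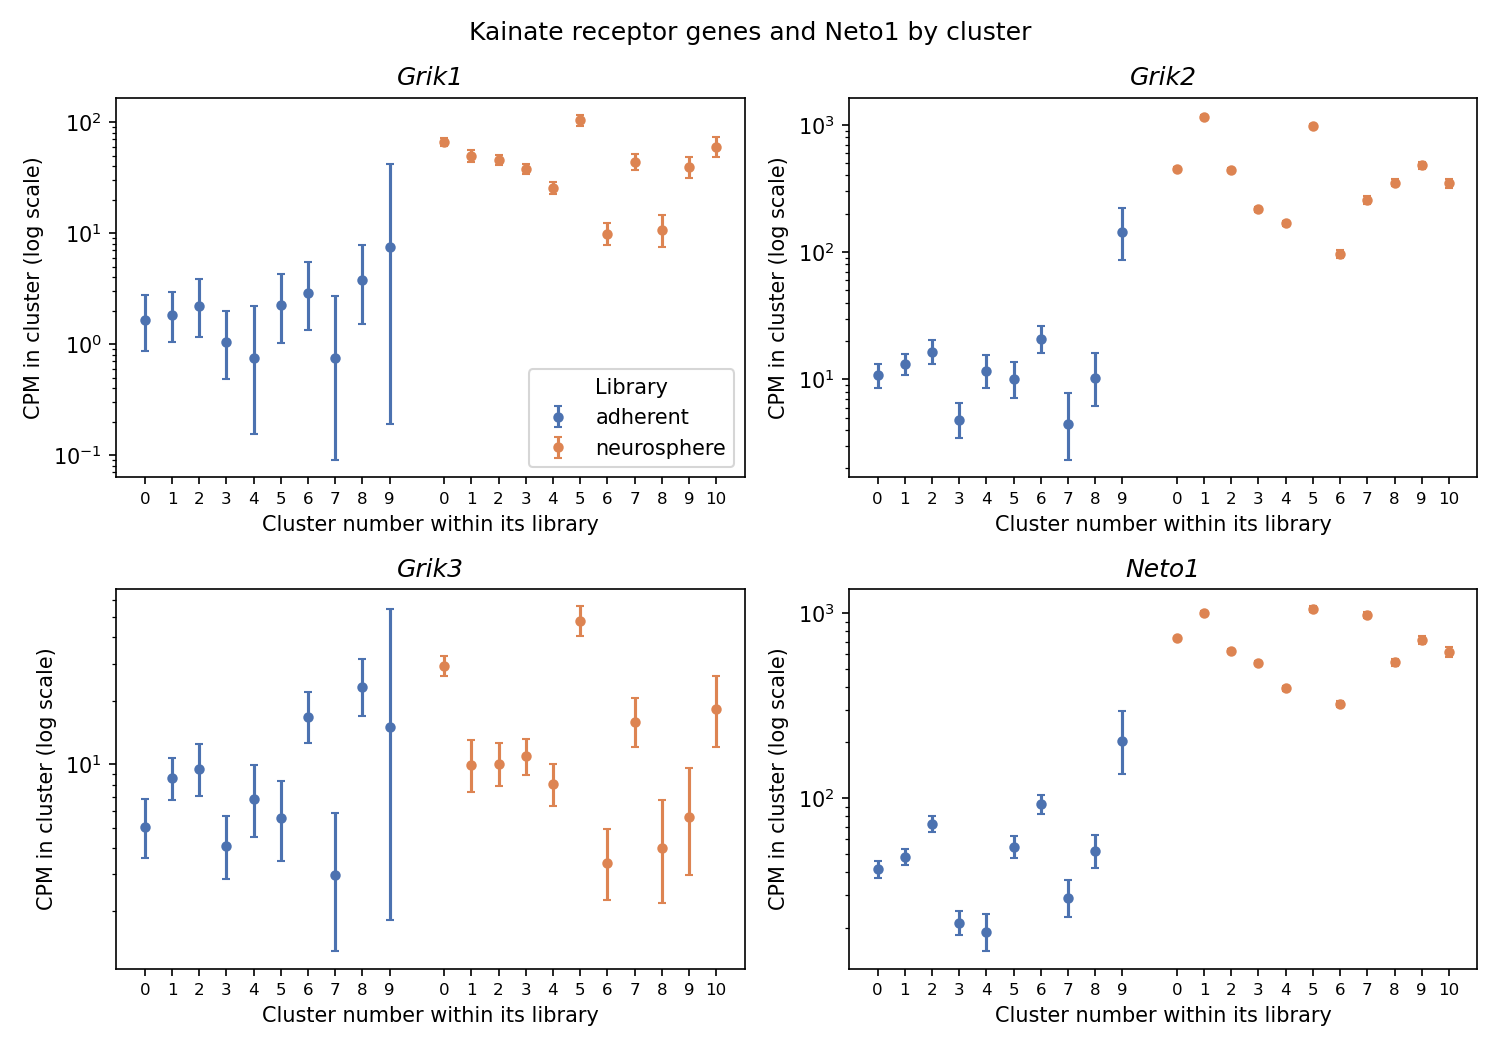
CPM (log axes, each panel on its own range) of Grik1, Grik2, Grik3 and Neto1 in the 10 adherent (blue) and 11 neurosphere (orange) clusters, with exact 95% Poisson intervals for counting error. Grik2 spans 97.1 to 1160 CPM over the neurosphere clusters, and of the adherent clusters only number 9, with 48 cells, reaches into that range at 143 CPM.

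Neurosphere cells with Grik1 had Grik2 or Grik3 more often than cells without Grik1. Among thinned neurosphere cells, Grik1 was found in 28.9% (23.6% to 34.7%) of the 273 cells with Grik3 and 17.7% (16.6% to 19.0%) of those without. Grik2 was found in 70.6% (67.2% to 73.8%) of the 775 cells with Grik1 and 62.5% (60.9% to 64.2%) of those without. For Grik2 and Grik3 the intervals overlapped in the shares of Grik3, at 7.22% (6.27% to 8.27%) of cells with Grik2 and 5.23% (4.16% to 6.48%) of those without, and just parted in the shares of Grik2, at 71.1% (65.3% to 76.4%) with Grik3 and 63.5% (62.0% to 65.0%) without. The shares of cells with Grik2 also overlapped for Grik5, at 67.9% (60.1% to 75.1%) with Grik5 and 63.9% (62.4% to 65.3%) without. The co-subunits Grik4 and Grik5 had intervals that just parted, with Grik5 in 5 of the 38 cells with Grik4 (13.2%, 4.41% to 28.1%) and 3.70% (3.15% to 4.32%) of those without, but overlapped the other way round, with Grik4 in 3.14% (1.03% to 7.19%) of cells with Grik5 and 0.817% (0.563% to 1.15%) of those without. In the adherent library the intervals with and without overlapped for each pair of kainate genes, as for Grik1 in 3 of the 234 cells with Grik2.

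Other genes, chosen after earlier values were known, differed in how they split the neurosphere cells. The myelin gene Mbp was found in 47.3% (41.2% to 53.4%) of thinned cells with Grik3 and 24.2% (22.9% to 25.6%) of those without. It was also more frequent with Grik2 (808 of 2686 cells with, 272 of 1510 without) and with Grik1 (31.1% and 24.5%). For the keratin gene Krt8 the order turned, with 36.3% (30.6% to 42.3%) of cells with Grik3 and 67.7% (66.2% to 69.1%) of those without. Krt8 was also less frequent with Grik1 (51.0% and 69.0%), but differed little with Grik2, at 66.4% and 64.2%, while the proliferation gene Top2a was found in 40.5% (38.6% to 42.4%) of cells with Grik2 and 54.0% (51.4% to 56.5%) of those without. Top2a did not follow Grik1, at 44.8% with and 45.5% without, and stood at 51.6% (45.5% to 57.7%) with Grik3 and 44.9% (43.3% to 46.5%) without. These shares describe cells of 1 library, which are not replicates.

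Over the 4276 neurosphere cells, the genes whose log-normalized counts went most closely with Grik2 were Col11a1 (Pearson r = 0.541), Mdga2 (0.535), Pde4b (0.497), Adgrl3 (0.490) and Map2 (0.483), out of 9454 genes found in at least 10% of cells. The cells share a library and differ in depth, and the r of Grik2 with the log of a cell's total UMIs was -0.293. For Grik3 they were Lhfpl3 (0.337), Lsamp (0.316), Ppp2r2b (0.298), Qk (0.289) and Cntn1 (0.243), and for Grik1 Lsamp (0.300), Alcam (0.284), Cntn1 (0.281), Lhfpl3 (0.271) and Ppp2r2b (0.248). Lsamp, Cntn1, Lhfpl3 and Ppp2r2b thus stood among the first 5 for both Grik1 and Grik3 and not for Grik2. The highest value for Grik5 was 0.0842, too weak to read in counts this sparse.

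Both kainate auxiliary subunit genes were measured and higher in neurospheres, with a median of 2.55. Beside the counts of this list and of each list that follows stand the shares over all measured genes. These were 21.7% higher and 11.7% lower, with a median of 0.32. Neto1, which slows the closing of kainate channels, went from 45.3 CPM (43.4 to 47.3) to 626 CPM (620 to 632), with 3.79 (3.72 to 3.85) as log2 fold change. A Neto1 UMI was seen in 25.2% of adherent cells and in 96.5% of neurosphere cells, or in 16.4% and 86.9% of thinned cells. Neto2, its closest relative, went from 22.4 to 55.3 CPM (log2 fold change 1.30, 1.20 to 1.40). Neto1 was found in 90.2% (89.0% to 91.3%) of thinned neurosphere cells with Grik2 and 81.1% (79.1% to 83.1%) of those without, and like Grik1 and Grik3 it was highest in cluster 5 (1049 CPM) and lowest in cluster 6 (322 CPM). Grik1, Grik2 and both auxiliary genes were thus higher in the same library, and as Neto1 was found in most cells of it, sharing of cells with Neto1 says little about any gene.

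The auxiliary subunits of AMPA receptors did not share that pattern. Of 13 genes 5 were measured, of which Cacng4, a transmembrane AMPA receptor regulatory protein, was higher (log2 fold change 2.08, 1.43 to 2.78) and Shisa8 lower (-1.34, -1.74 to -0.95), with a median of -0.57. The most abundant by UMIs was Cacng7, with 5.68 and 8.01 CPM, and the 13 genes summed to 15.0 adherent CPM and 15.1 neurosphere CPM.

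Of 20 genes for scaffolds, traffic and synaptic partners of these receptors, 16 were measured, 6 were higher and 2 lower, with a median of 0.59. The highest log2 fold changes were those of Nptx1 (5.14, 4.84 to 5.45), a neuronal pentraxin that gathers AMPA receptors, Dlg3 (3.37, 2.93 to 3.85), the scaffold SAP102, and Grip1 (1.56, 1.34 to 1.79), which binds GluA2 and GluA3. Dlg4 (-2.52, -2.84 to -2.22), the scaffold PSD-95, and Grip2 (-2.01, -2.93 to -1.16) were lower, and Sdcbp had the most UMIs, at 158 and 247 CPM. In thinned neurosphere cells Nptx1 was found in 27.3% (25.6% to 29.1%) of cells with Grik2 and 14.9% (13.1% to 16.8%) of those without. C1ql2, a secreted ligand that tethers GluK2 and GluK4, had 0 UMIs in both libraries, and C1ql3 had 2 adherent UMIs and 0 neurosphere UMIs.

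Other glutamate receptor genes were also looked at. Of 7 NMDA subunit genes 2 were measured, of which Grin1, the obligate subunit, was lower (12.8 to 5.53 CPM, log2 fold change -1.21, -1.40 to -1.02), with a median of -0.52. Among metabotropic receptor genes, Grm7 was higher (log2 fold change 2.23, 1.07 to 3.62). Grm8 had the most UMIs, at 3.48 and 3.77 CPM, and Grm6 had 0 UMIs in both. Summed, the kainate genes made 460 CPM in neurosphere cells, beside 0.308 CPM for AMPA and 8.27 CPM for NMDA genes, sums that are not set per length.

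Among 16 genes of glutamate transport and metabolism, 10 were measured, 1 was higher and 2 were lower, with a median of -0.33. The transporter Slc1a3, which takes up glutamate, fell from 370 to 80.5 CPM (log2 fold change -2.20, -2.25 to -2.16), and Slc7a11, which exports glutamate in exchange for cystine, from 28.3 to 5.54 CPM (-2.35, -2.52 to -2.18). Glul, the glutamine synthetase, rose from 16.9 to 41.7 CPM (1.31, 1.19 to 1.42). Slc3a2, the partner chain of Slc7a11, was the most abundant in neurosphere cells at 226 CPM, after 280 CPM in adherent cells, and Slc1a6 and Slc17a6 had 0 UMIs in both. The uptake gene Slc1a3 and the export gene Slc7a11 were thus lower in the library where kainate transcripts were higher, and a link between them was not tested.

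The RNA of GluA2, GluK1 and GluK2 is edited by adenosine deamination at a codon in the pore loop, known as the Q/R site, which turns glutamine into arginine and lowers calcium entry. Neither editing enzyme with enough UMIs was past 2-fold. Adar was at 17.5 and 16.9 CPM (log2 fold change -0.05, -0.18 to 0.08) and Adarb1, the enzyme that edits the GluA2 site, had a log2 fold change of -0.57 (-0.71 to -0.42). Adarb2, a relative without known editing activity, had 4 and 7 UMIs, and the median of the 2 measured genes was -0.31. Counts per gene do not show whether a transcript was edited. To show where the site lies in the genes the results turn on, 45 bases of the coding strand around it, from the GENCODE transcripts on GRCm38, are given 5′ to 3′ with the Q/R codon in capitals, for GluA2, for the edited GluK1 and GluK2 and, beside them, for the other kainate subunits, which keep glutamine. The windows of Grik1, Grik2 and Grik3 join 2 exons, so their coordinates span an intron.
Gria2 (chr3:80706890-80706934, minus strand, exon 11): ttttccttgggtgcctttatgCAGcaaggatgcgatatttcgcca
Grik1 (chr16:87936099-87940565, minus strand, codon in exon 12): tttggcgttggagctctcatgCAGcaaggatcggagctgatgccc
Grik2 (chr10:49240780-49244352, minus strand, codon in exon 13): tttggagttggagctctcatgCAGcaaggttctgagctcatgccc
Grik3 (chr4:125691186-125693978, plus strand, codon in exon 12): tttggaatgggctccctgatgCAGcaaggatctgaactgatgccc
Grik4 (chr9:42547602-42547646, minus strand, exon 16): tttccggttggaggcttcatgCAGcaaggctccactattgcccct
Grik5 (chr7:25022476-25022520, minus strand, exon 15): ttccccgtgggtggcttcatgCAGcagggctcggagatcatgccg
All 6 genes carry CAG at the site in the reference, at chr16:87940542-87940544 for Grik1 and chr10:49244329-49244331 for Grik2.

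Markers of neural and other cell types are set beside the kainate genes next, and the part of any cell type in the differences was not tested. Of 12 neuron markers 3 were measured and 1, Syt1, was higher (log2 fold change 1.49, 1.30 to 1.67), with a median of 0.68. Their sum was 28.9 adherent CPM and 51.9 neurosphere CPM, most of it Tubb3, while Snap25 and Slc17a6 had 0 UMIs in both libraries, Gad1 0 in adherent and Nefl 0 in neurosphere cells, and Rbfox3 had 1 UMI in each. The neuron markers thus differed among themselves, with Tubb3 at 31.5 CPM and Syt1 at 18.5 CPM in the library rich in Grik2.

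Markers of oligodendrocyte precursors were for the most part higher in neurospheres, as Grik1 and Grik2 were. Of 8 precursor markers, all measured, 6 were higher, with a median of 2.30, and their sum went from 465 to 2325 CPM. The leading ones were Gpr17 (log2 fold change 9.33, 6.85 to 14.64, from 1 adherent UMI), Olig1 (3.20, 3.16 to 3.23) and Olig2 (2.74, 2.68 to 2.79), and the most abundant were Sox10 in adherent and Olig1 in neurosphere cells. Of myelin markers, the most abundant were Mbp in adherent and Cnp in neurosphere cells. Opalin (7.60, 5.11 to 12.91, from 1 adherent UMI), Mag (6.10, 4.23 to 9.16, from 2 adherent UMIs) and Mog (5.17, 4.44 to 6.02) were higher and Mbp (-1.04) lower, just past 2-fold. No precursor marker was at 0 in either library.

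Of the 9 astrocyte markers 6 were measured, 0 higher and 2 lower, Slc1a3 and Gja1 (log2 fold change -1.34, -1.49 to -1.18), with a median of -0.04, sums of 567 and 366 CPM, and S100b the most abundant in neurosphere cells. Of 7 neural stem cell markers 6 were measured, Hes5 (5.82, 5.07 to 6.70) was higher and Vim, the most abundant, lower (-1.66, -1.67 to -1.65), with a median of 0.78 and sums of 5941 and 2233 CPM, and Prom1 had 0 adherent UMIs. Of 8 immune markers 2 were measured and Cd74 was lower (-2.38, -2.82 to -1.96), with a median of -1.49 and sums of 7.04 and 2.42 CPM. Tyrobp and C1qa had 0 UMIs in both, Itgam 0 in adherent and Ptprc, C1qb and Aif1 0 in neurosphere cells, while Cd74 had 219 and 59 UMIs and Cx3cr1, the most abundant in neurosphere cells, 103 and 96 UMIs. Of 6 endothelial and mural markers 2 were measured and Pecam1 was higher (1.28, 0.86 to 1.72), with a median of 0.57 and sums of 25.7 and 25.3 CPM, mostly Flt1, while Cdh5 had 0 UMIs in both and Cldn5 and Kcnj8 0 in neurosphere cells. Of 5 fibroblast markers 3 were measured and those 3 were higher, Dcn (11.33, 8.85 to 16.63, from 1 adherent UMI), Col1a1 (7.04, 6.77 to 7.31) and Lum (0 and 143 UMIs), with a median of 7.04 when the 0 of Lum is set to 3 counts, and sums of 3.24 and 387 CPM, mostly Col1a1. Pdgfrb, below the 50 UMIs of a measured gene, had 32 and 4 UMIs.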

How the data were processed

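The authors deposited, for each of 2 libraries, raw counts of UMIs per gene and called cell from Cell Ranger 7.0.1 on mm10, without normalization, for 5764 adherent and 4951 neurosphere cells. The 13 mitochondrial and 101 ribosomal genes were removed, then cells under 1000 UMIs or under 1250 (adherent) or 2250 (neurosphere) genes. Filtering cells first, as an alternative, kept 5073 and 4300 cells. No doublets were removed, and cells over the 95th percentile of UMIs were left out as an alternative. Cells were thinned without replacement (seed 1, a stream of its own for each cell). Clusters came from Seurat 5.3.0 (2000 variable genes less the members, 17 adherent and 18 neurosphere PCs, resolution 1.0), TMM factors from edgeR 4.0.16 under R 4.3.3, and the rest from statsmodels 0.14.6, pandas 2.3.3, scipy 1.17.1 and numpy 2.4.6 under Python 3.11.15 (lowess span 0.5 on gene length). Of 32285 gene identifiers, 32235 were found in GENCODE M21. In simulated Poisson counts with 200 changed genes, the 95% intervals held the true fold change of 194. The draws had only the counting error that the intervals assume, so this checks their calculation and not their fit to these cells.

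The text names all members and, of each of the 18 gene lists, at most 3 measured genes past 2-fold each way, the most abundant gene, and markers at 0. Some genes of these lists, and the list totals that need them, are not reported here. Further genes were chosen after their values were seen. The members and lists were chosen with earlier results of these data known. Alternatives covered the cell filter, totals, TMM, a pseudocount of 1 CPM, cell means, thinning, gene length, minimum UMIs, fold and clustering.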

Additional observations from a re-analysis of the deposited data

Results flagged for a closer look

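Barcodes that the cell filter left out still held kainate UMIs above what a count of 0 allows. The 713 left-out adherent barcodes held 48 UMIs of the 5 kainate genes among 392008 UMIs, or 122 CPM (90.3 to 162), beside 35.0 CPM in the kept cells, and 22 of them were of Grik2. The 675 left-out neurosphere barcodes held 513 kainate UMIs among 574706, or 893 CPM (817 to 973), beside 460 CPM in the kept cells, and 460 of them were of Grik2. The left-out barcodes had a median of 48.8% mitochondrial UMIs in the adherent and 87.0% in the neurosphere library. In both libraries the left-out barcodes thus had a higher kainate level than the kept cells, and the cause was not tested. AMPA UMIs in left-out barcodes numbered 0 in the adherent and 1 in the neurosphere library.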

How the results depend on the processing

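No paired analysis was possible because each condition has 1 library and the labels give no replicate numbers. Grik1 and Grik2 stayed over 2-fold higher under all 17 alternatives for the count of members, which gave 2 to 3 genes, and no sign turned. The count of lower members was 1 in 16 of them and 0 at a limit of 3-fold. The median log2 fold change of the measured members, 0.89, stayed within the interval of Grik3, its middle gene, under 13 alternatives, and was 1.11 with mitochondrial and ribosomal genes in the total, 0.67 with TMM scaling, 0.64 with the gene length trend removed and 0.28 at a minimum of 20 UMIs, where Gria4 joined the measured genes. A kainate UMI was found in 25.7%, 9.66% and 23.1% of adherent and 88.6%, 61.3% and 78.4% of neurosphere cells without thinning, at 3000 UMIs and at 8000 UMIs, beside 15.1% and 71.8% at 5000 UMIs. An AMPA UMI was found in 0.0407% of adherent cells at 3000 UMIs, beside 0.179%, and in 0.444% of neurosphere cells without thinning and 0.256% at 8000 UMIs, beside 0.0715%. The GluA2 share of AMPA UMIs, 7.14% and 5.00%, was 0% in adherent cells under the neurosphere minimum of genes and 0% in both libraries after thinning to 5000 UMIs, since its lone UMIs were lost, and 18.5% and 12.4% with UMIs divided by gene length. Log2 fold changes ranged from 3.96 to 4.85 for Grik1, 4.75 to 5.47 for Grik2, 0.64 to 1.11 for Grik3, -1.83 to -1.10 for Grik4 and -0.55 to -0.11 for Grik5. The setting without the barcodes found in both libraries was chosen after seeing the data. None of the AMPA genes reached 50 UMIs, and whether more depth would change this was not tested.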
